A study of Mus musculus with 14 samples.

Results

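Myeloid progenitors from chimeras with induced deletion of Dpy30 were compared with their controls through 2 RNA-seq libraries, 1 labelled control MyePro and 1 labelled KO MyePro, out of 14 samples in the series. DPY30 belongs to the core of every SET1 and MLL complex, the enzymes that place methyl groups on lysine 4 of histone H3, a mark of promoters. In control cells the Mx1-Cre transgene was combined with the Dpy30 genotype F/+ (1 floxed and 1 wild-type allele, so that 1 intact allele is left after Cre), and in KO cells with the genotype F/- (1 floxed and 1 null allele). Donor marrow (CD45.2+) was mixed with wild-type C57Bl/6J competitor marrow (CD45.1+) and transplanted into irradiated CD45.1+ mice. All recipients, those of control marrow included, then received 4 injections of pIpC (7.5 µg/g) over 10 days, starting 7 weeks after transplantation. The double-stranded RNA analogue pIpC induces interferon, which switches on the Mx1 promoter and hence Cre, so the deletion is not confined to myeloid cells. Bone marrow was taken 2 weeks after the last injection, depleted of lineage-positive cells and sorted, and each library pooled 2 to 3 chimeras. Neither the MyePro gate nor the age of the mice is in the labels, nor is it stated whether competitor and host cells were sorted away.

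Myeloid progenitors descend from multipotent LSK cells and give rise to granulocytes, monocytes, mast cells, megakaryocytes and red cells. Early granulocyte progenitors make the proteases and myeloperoxidase of primary granules, red cell progenitors switch on heme, membrane skeleton and carbonic anhydrase genes under the factor KLF1, and megakaryocyte progenitors switch on platelet receptor and granule genes. Such dividing progenitors also make ribosomes at a high rate, a programme that the transcription factor MYC promotes.

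Control MyePro held 20820762 gene counts and KO MyePro 11531994, so that a level of 5 CPM (reads per 1000000, scaled with TMM factors) corresponds to about 99.8 and 56.7 counts. Entries treated as ribosomal RNA took 1.02% of gene counts in control and 5.14% in KO, mitochondrial entries 3.42% and 5.85%, and reads without a feature 2.40% and 5.86% of all reads in the file, and the part of these shares in the differences was not tested. Where a pair of levels is given, control comes first and KO after it. The marker check gave these levels: the stem cell factor receptor gene Kit stood at 394 CPM in control against 242 in KO (log2 ratio -0.70), Mpo at 6399.7 and 2124 CPM, and Ly6a, which encodes Sca-1, at 4.76 and 11.5 CPM. Y-linked Ddx3y, Kdm5d, Uty and Eif2s3y lay within 2-fold of each other in the libraries (log2 ratios from -0.68 to -0.14), with 3 counts of Xist in control and 7 in KO. With 1 library per genotype there is no replicate check, no test across libraries and no p-value, and 95% intervals (exact Clopper-Pearson) cover counting error only. In bulk libraries, fewer cells of a type and less RNA per cell cannot be told apart.

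A gene was counted where its mean level over both libraries reached 5 CPM, which 10245 did. Of these, 1162 (11.3%) were at least 2-fold higher in KO MyePro and 810 (7.91%) at least 2-fold lower. Larger differences leaned further to the higher side: 460 genes were at least 4-fold higher against 157 lower, and 238 at least 8-fold higher against 46 lower. The shares differed with level: among genes with a mean of 5 to 20 CPM 23.8% were higher and 9.47% lower, while among genes of 100 CPM or more the shares were 5.19% and 8.41%. Depth was enough to place the counting interval wholly past 2-fold for 888 of the higher and 531 of the lower genes. Of the higher genes 477 lay under 5 CPM in control and so were counted through the KO library, and 143 of the lower genes were counted through the control library. The log2 ratio had a median of -0.08 over the counted genes, and quartiles of -0.49 and 0.42. Each count of list members past 2-fold is to be read against the 11.3% and 7.91% of the background. For lists of mostly low-level genes the nearer background is the 23.8% and 9.47% found at 5 to 20 CPM. For lists of abundant genes it is the 5.19% and 8.41% at 100 CPM or more.

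**Figure D1:**
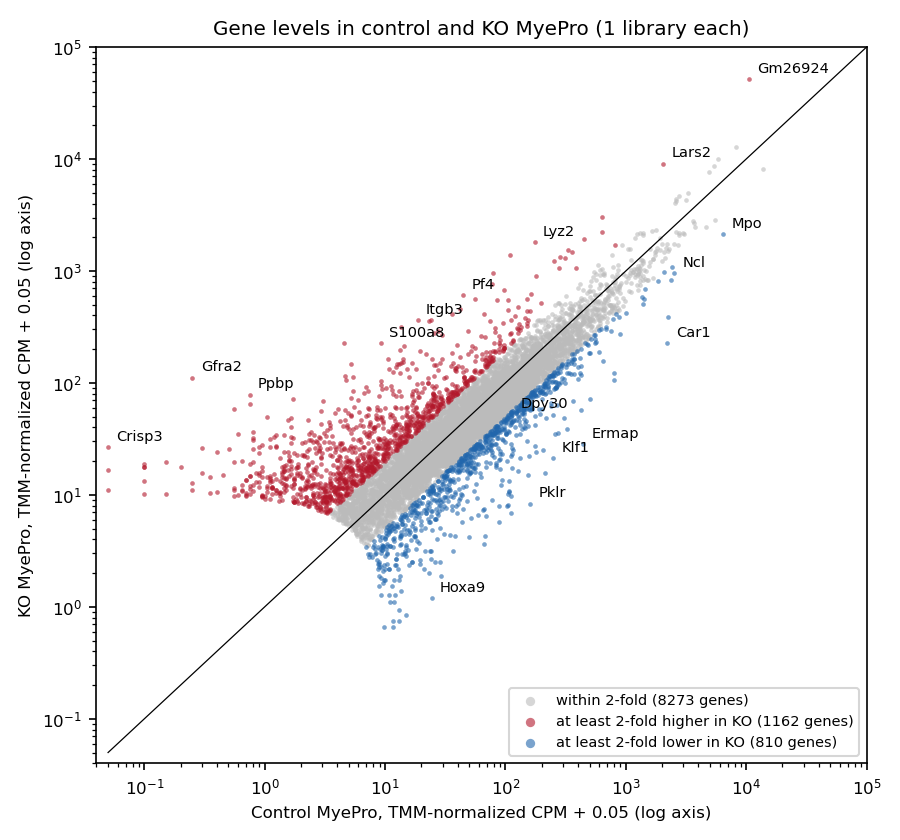
TMM-normalized CPM of each counted gene in control MyePro (x axis, log) and KO MyePro (y axis, log), with 0.05 added so that zeros can be drawn. Red points are the 1162 genes at least 2-fold higher in KO, blue the 810 at least 2-fold lower, and the line marks equal levels. Gfra2, Crisp3 and Ppbp lie far above the line, and Hoxa9, Pklr and Ermap far below it.

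Dpy30 (GRCm38.p6, chromosome 17, 74299474 to 74323944) had 2264 counts in the control library and 589 in the KO library, or 113 and 51.9 CPM, so that KO kept 45.8% of control (log2 ratio -1.13, interval -1.261 to -0.996). The counts cover the whole gene, and the labels do not say which exons are deleted. The other subunits lay within 2-fold: of 23 members of the H3K4 methyltransferase complexes, each of them counted, Dpy30 was the one past 2-fold, 20 had negative ratios and the median was -0.38. Among the core partners of DPY30, Ash2l stood at 138 CPM in control against 113 in KO (log2 ratio -0.29), Wdr5 at 197 and 148 CPM and Rbbp5 at 67.8 and 51.7 CPM. The catalytic subunit genes ranged from Setd1b, with a log2 ratio of -0.69, and Kmt2b at 49.3 and 32.6 CPM to Kmt2a at 41.0 and 45.0 CPM (0.13). Next after Dpy30 in the list was Hcfc1, which encodes a cofactor of the SET1 complexes, at 372 CPM in control against 208 in KO (log2 ratio -0.84). Genes of the Polycomb complexes, which methylate lysine 27 of histone H3 or ubiquitinate histone H2A, also lay mostly within 2-fold, with 0 higher and 3 lower of 28 counted (median -0.26). Those 3 were Cbx2, a reader subunit (17.99 and 6.52 CPM), Phf19 (16.4 and 6.52 CPM) and Kdm2b, a CpG-binding subunit (135 and 64.3 CPM), while the methyltransferase gene Ezh2 stood at 159 and 88.0 CPM.

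The gene furthest up was Gfra2, a receptor of the GDNF family (chromosome 14, 70890107 to 70979840), with 4 counts in the control library and 1265 in the KO library, or 0.200 and 112 CPM (log2 ratio 8.31, interval 7.760 to 10.998). Crisp3, which encodes a secreted granule protein, had 0 counts in the control library and 302 in the KO library, at least 177-fold higher against a floor of 3 counts per library, a bound that leaves out counting error in KO (the log2 interval starts at 7.16). Heph, which encodes the copper ferroxidase hephaestin, stood at 0.501 and 58.8 CPM, and Aplnr, the apelin receptor gene, at 0.251 and 26.2 CPM. Cd38, an NAD-hydrolysing surface enzyme gene, stood at 0.551 and 35.1 CPM. The chemokine-binding receptor gene Darc stood at 0.451 and 25.5 CPM, the matrix protein gene Cyr61 at 0.752 and 32.2 CPM, Rufy4 at 0.752 and 30.6 CPM, and the LIM-domain gene Fhl1 at 1.65 and 72.2 CPM. Platelet genes (Ppbp, Mmrn1, Clec1b) and neutrophil genes (S100a9, Mrgpra2a, Cd177) made up the rest of the 15 highest with a mean of 10 CPM or more. Some counted genes under that mean, such as Gzmc (log2 ratio 6.78), had ratios as high. Each of the 15 was under 5 CPM in control, so each was counted through the KO library.

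The 15 lowest at the same minimum mean were mostly red cell genes, but not only. Hoxa9, a homeobox factor of early progenitors (chromosome 6, 52223097 to 52227370), had 485 counts in the control library and 13 in the KO library, or 24.3 and 1.15 CPM (log2 ratio -4.24, interval -5.326 to -3.619). Atp7b, a copper transporter gene, stood at 68.2 and 4.23 CPM, the pseudokinase gene Trib2 at 111 and 9.79 CPM, and the protease gene Prss50 at 50.2 and 4.14 CPM. Smim1, which encodes the Vel blood group protein, stood at 29.1 and 1.85 CPM, Tmem56 at 66.2 and 3.61 CPM and Paqr9 at 36.8 and 3.09 CPM. Unlike the highest genes, all 15 were well detected in control, from 24.3 to 443 CPM.

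Erythroid genes were lower in KO MyePro as a group. Of 40 listed genes in the files 34 reached the minimum level, and 25 of these were at least 2-fold lower, 0 higher and 32 negative, with a median log2 ratio of -1.98. Klf1, the master transcription factor of red cell development (chromosome 8, 84901982 to 84905291), stood at 248 and 21.3 CPM (log2 ratio -3.53, interval -3.730 to -3.351). The erythropoietin receptor gene Epor stood at 90.7 CPM in control against 17.0 in KO (log2 ratio -2.40). Among membrane and membrane skeleton genes, Ank1, which anchors spectrin, stood at 111 and 6.79 CPM, adducin gene Add2 at 89.0 and 5.73 CPM, and the Rh genes Rhd and Rhag at 103 and 7.85 CPM and 104 and 8.11 CPM. Ermap, an erythroid surface protein gene, held 8839 counts in the control library and 323 in the KO library (log2 ratio -3.95).

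Other members of the erythroid list encode enzymes and channels. Pklr, the red cell pyruvate kinase gene, was lowest of all counted genes at 161 and 8.29 CPM, which left 5.16% of the control level. Carbonic anhydrase genes Car1 and Car2, the most abundant of the list, stood at 2215 and 228 CPM and 2223 and 390.2 CPM. Sphk1, a sphingosine kinase gene, stood at 215 and 15.7 CPM, and the water channel gene Aqp1 at 798 and 122 CPM. Regulators shared with other lineages differed less: Tal1 stood at 235 and 147 CPM and Lmo2 at 431 and 391 CPM, both within 2-fold, while Gfi1b stood at 192 CPM in control against 52.2 in KO (log2 ratio -1.88). The summed level of the list stood at 10175 CPM in control against 2880 in KO.

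Heme synthesis genes were lower too, 5 of 14 counted at least 2-fold, 0 higher, and all 14 negative (median -0.75). The largest difference was in Cpox, coproporphyrinogen oxidase, at 307 CPM in control against 48.4 in KO (log2 ratio -2.66), and lower as well were the mitochondrial glycine carrier gene Slc25a38 (47.5 and 14.1 CPM) and Alad (159 and 57.7 CPM). Alas1, which encodes the first enzyme of the pathway in most cells, stood at 287 and 183 CPM. Globin transcripts went the other way at low levels: Hbb-bs stood at 2.35 and 36.7 CPM, Hbb-bt at 1.60 and 15.3 CPM and Hba-a1 at 3.46 and 12.4 CPM. Those 3 of 7 entries reached the minimum, each through the KO library, and globin copies are nearly identical, so their reads may be split between entries.

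Most counted megakaryocyte and platelet genes were higher in KO MyePro. Of 40 listed genes 38 were counted, 29 at least 2-fold higher and 2 lower, with a median log2 ratio of 2.66. For 8 of the 38 the level in control was under 5 CPM, so that they were counted through the KO library. Gp6, the platelet collagen receptor gene, had 0 counts in the control library and 124 in the KO library, at least 72.7-fold higher against the same floor (log2 interval from 5.86). Well-detected members showed the difference as well. Itgb3, the beta chain of the fibrinogen receptor, had 371 counts in the control library and 4116 in the KO library, or 18.6 and 363 CPM (log2 ratio 4.28, interval 4.133 to 4.444). Pf4, a platelet alpha granule chemokine gene, stood at 44.5 and 606 CPM (3.76), and the thrombin receptor gene F2r at 98.0 and 671 CPM (2.77). Plek, which encodes the platelet kinase substrate pleckstrin, stood at 77.0 and 771 CPM, and Rap1b, a small GTPase gene of integrin activation, at 278 and 1058 CPM.

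Not each megakaryocyte regulator was higher. Fli1, an ETS factor that drives platelet genes, stood at 88.9 CPM in control against 265 in KO (log2 ratio 1.57), and Nfe2, needed for platelet release, at 178 and 331 CPM, within 2-fold. Gfi1b, a repressor used by red cell and megakaryocyte progenitors, was lower, as given with the red cell genes, and so was F13a1, a clotting factor gene that monocytes also express (369 and 149 CPM). The summed level of the list stood at 2516 CPM in control against 7819 in KO.

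Gp6, Mmrn1 and Clec1b had the highest ratios among members of the megakaryocyte list whose available promoter sequence holds a GATA-type motif. Their upstream sequences are shown, since GATA factors are known regulators of megakaryocyte and red cell genes. Each is the 250 bases before the annotated start site from RefSeq (GRCm38.p6), on the gene's strand, 5′ to 3′. Capitals mark AGATAA or TGATAA, searched on both strands. Of the 38 counted members of the list 29 had a promoter sequence, and 8 of these held the motif in this window. The motif lies in the same window of 17.0% of 27025 genes of the promoter table, so a match is a description of these letters and not of a bound site.
Gp6, minus strand, chr7:4397745-4397994, 0 counts in control and 124 in KO: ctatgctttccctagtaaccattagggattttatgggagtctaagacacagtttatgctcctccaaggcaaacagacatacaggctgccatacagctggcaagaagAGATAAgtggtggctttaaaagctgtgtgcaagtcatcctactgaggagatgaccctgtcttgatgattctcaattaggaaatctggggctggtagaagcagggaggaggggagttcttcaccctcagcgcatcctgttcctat
Mmrn1, plus strand, chr6:60944067-60944316, log2 ratio 5.61: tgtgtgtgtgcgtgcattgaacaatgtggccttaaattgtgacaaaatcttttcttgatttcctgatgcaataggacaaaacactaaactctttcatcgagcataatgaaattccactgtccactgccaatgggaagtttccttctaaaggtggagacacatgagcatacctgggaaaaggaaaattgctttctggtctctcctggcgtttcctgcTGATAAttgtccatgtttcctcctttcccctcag
Clec1b, plus strand, chr6:129397047-129397296, log2 ratio 5.43: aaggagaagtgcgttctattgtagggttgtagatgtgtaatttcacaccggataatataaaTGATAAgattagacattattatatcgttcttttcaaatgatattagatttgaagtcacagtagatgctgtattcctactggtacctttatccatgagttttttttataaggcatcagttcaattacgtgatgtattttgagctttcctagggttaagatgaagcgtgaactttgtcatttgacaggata
In each of them the motif occurs 1 time, and it begins 144 bases before the start site in Gp6, 34 in Mmrn1 and 189 in Clec1b.

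**Figure D2:**
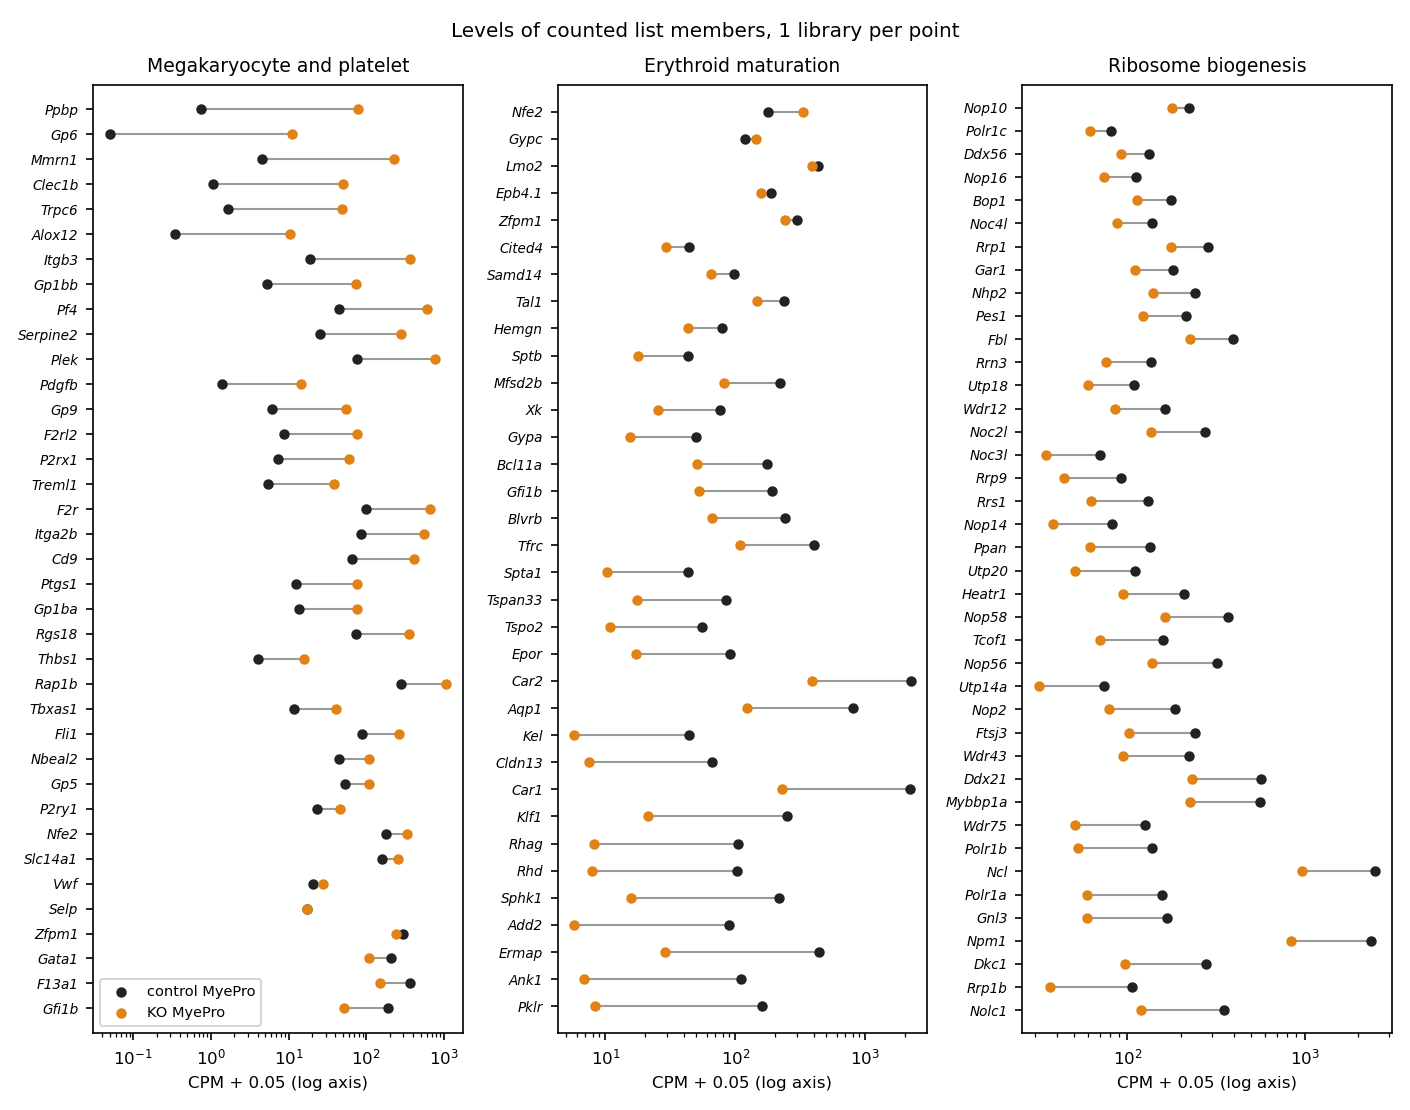
Levels of counted members of 3 gene lists (CPM with 0.05 added, log axis) in control MyePro (black) and KO MyePro (orange), 1 library per point, sorted by log2 ratio. Orange lies right of black by 2-fold or more for 28 of the 37 megakaryocyte genes drawn (1 of the 38 counted, also higher, is not drawn), left of black for 25 erythroid genes by 2-fold or more, and left of black for all 40 ribosome biogenesis genes.

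Primary granule genes took no common direction. Of 28 counted, 7 were at least 2-fold higher and 3 lower (median 0.35), and the list's summed level was 19449 CPM in control against 19204 in KO. Mpo, myeloperoxidase, with 127723 counts in the control library and 24089 in the KO library, stood at 6399.7 and 2124 CPM (log2 ratio -1.59). The serine protease gene Prtn3 stood at 1368 CPM in control against 585 in KO (log2 ratio -1.23), whereas its neighbour in function Elane, neutrophil elastase, stood at 1582 and 1212 CPM, within 2-fold. Ly6c2, a surface antigen gene of monocyte and granulocyte progenitors, stood at 397 and 138 CPM. Higher were Ms4a3, a marker of granulocyte-monocyte progenitors, at 387 and 1067 CPM, the lysosomal membrane gene Cd63 at 105 and 545 CPM, Anxa1 at 95.6 and 342 CPM, and Lyz2, lysozyme of myeloid cells, at 175 and 1797 CPM (3.36).

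Genes of late neutrophil stages were mostly higher among those counted. Of 28 in the files 16 were counted, 13 at least 2-fold higher and 1 lower (median 4.06), and 8 of the 13 higher were counted through the KO library. With no minimum level the median was 3.16. S100a8, an alarmin subunit gene, had 183 counts in the control library and 2585 in the KO library, or 9.17 and 228 CPM, and its partner S100a9 stood at 0.701 and 64.4 CPM. The siderophore-binding protein gene Lcn2 stood at 13.4 and 316 CPM, the chemokine receptor gene Cxcr2 at 13.5 and 151 CPM, and Mgam at 13.3 and 198 CPM. In contrast, Padi4, a histone deiminase gene, stood at 17.6 CPM in control against 4.85 in KO (log2 ratio -1.83). Camp, a secondary granule gene, and Ly6g, a Gr-1 antigen gene, were at 0 counts in both libraries, and the lactoferrin gene Ltf had 2 and 7 counts (these 3 were named after their values were seen). The summed level of the list was 193 CPM in control against 1308 in KO.

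Monocyte, macrophage and dendritic cell genes divided. Of 24 counted, 12 were at least 2-fold higher and 8 lower (median 0.97). On the lower side stood the monocyte and dendritic cell factor Irf8 (218 and 48.5 CPM), the antigen presentation genes H2-Ab1 (58.0 and 9.26 CPM) and Cd74 (37.9 and 10.2 CPM), and Ly86 (43.9 and 9.96 CPM). On the higher side stood complement genes of tissue macrophages, C1qa at 3.41 and 41.7 CPM and C1qc at 4.61 and 57.0 CPM, the integrin gene Itgax at 3.41 and 39.2 CPM, and Hmox1, heme oxygenase, at 13.9 and 154 CPM. C1qa, C1qc and Itgax were among 6 of the 12 that were counted through the KO library. Ctss, a lysosomal protease gene, had 843 counts in the control library and 1919 in the KO library and stood at 42.2 and 169 CPM.

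Mast cell, basophil and eosinophil genes divided as well. Of 17 counted members 8 were at least 2-fold higher and 4 lower (median 0.74). Fcer1a, the alpha chain of the IgE receptor, stood at 22.9 CPM in control against 355 in KO (log2 ratio 3.94), the basophil protease gene Mcpt8 at 150.3 and 438 CPM, and the histamine synthesis gene Hdc at 119 and 392 CPM. Csf2rb, the receptor chain shared by IL-3, IL-5 and GM-CSF, and Csf2rb2, the beta chain specific to IL-3, stood at 51.4 and 194 CPM and 14.3 and 214 CPM. The eosinophil granule genes Prg2 and Epx stood at 105 and 10.1 CPM and 23.9 and 2.64 CPM, and the basophil and mast cell protease gene Prss34 at 172 and 79.3 CPM.

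**Figure D3:**
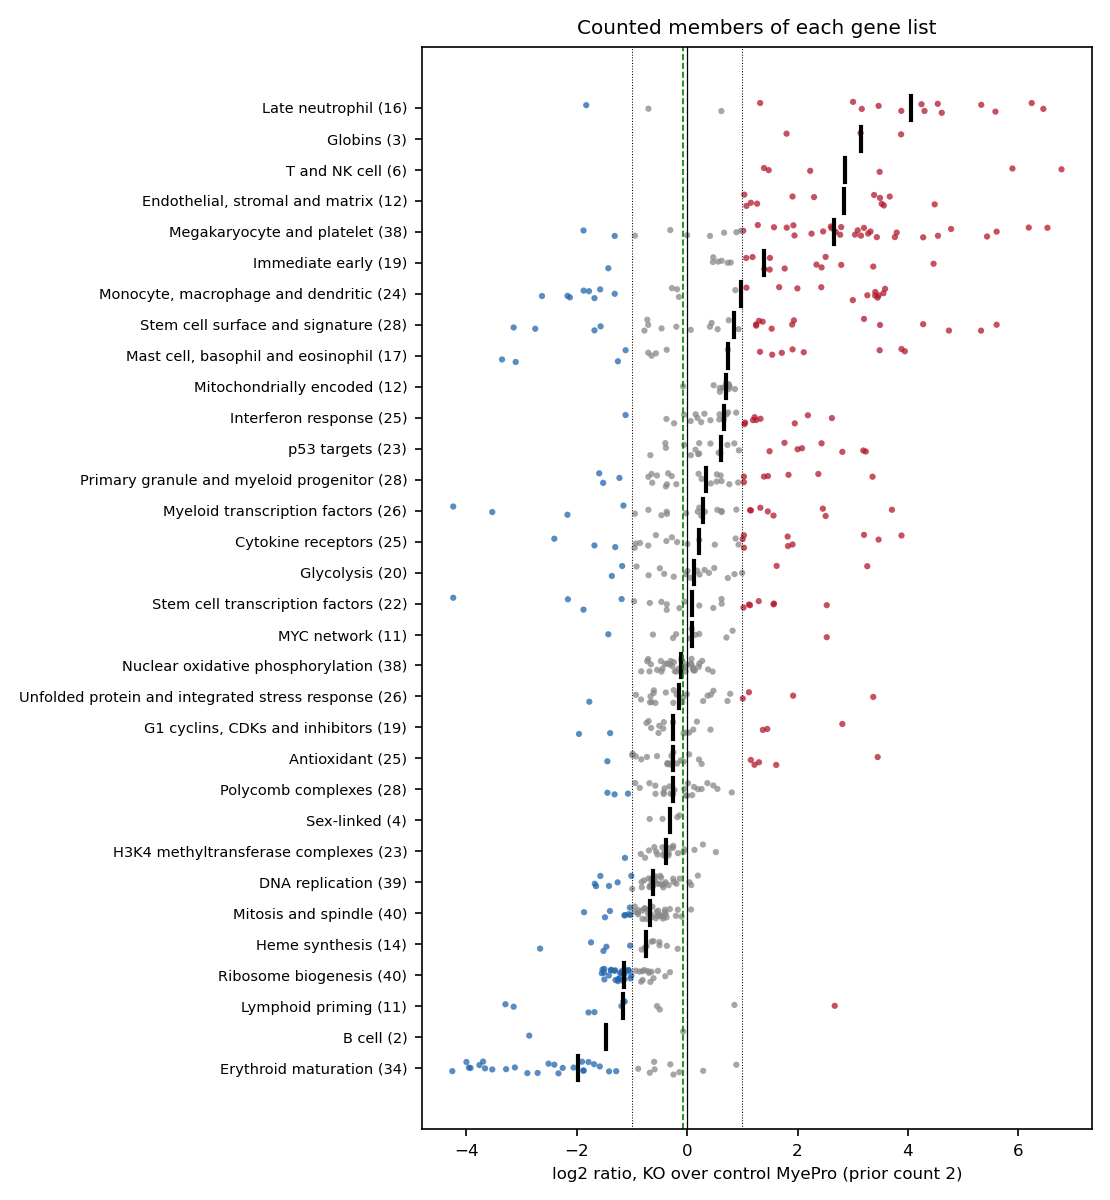
Log2 ratios (KO over control MyePro) of the counted members of each gene list, with the number counted in brackets. Each point is a gene, red at least 2-fold higher and blue at least 2-fold lower, black bars are list medians, dotted lines mark 2-fold and the green dashed line the median of all counted genes (-0.08). Late neutrophil and megakaryocyte medians lie at 4.06 and 2.66, and the ribosome biogenesis and erythroid medians at -1.13 and -1.98.

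Transcription factor genes of the myeloid lineages followed no single direction, 8 of 26 counted being at least 2-fold higher and 4 lower (median 0.29). Cebpa, the factor of granulocyte commitment, stood at 112 CPM in control against 281 in KO (log2 ratio 1.33), and the inhibitors of basic helix-loop-helix factors Id1 and Id2 stood at 4.51 and 25.5 CPM and 6.86 and 91.7 CPM. Myb, needed for progenitor proliferation, stood at 764 and 469.7 CPM, within 2-fold. Ikzf1, which encodes Ikaros, stood at 482 CPM in control against 217 in KO (log2 ratio -1.15). Stem cell transcription factors were split as well, with 7 higher and 4 lower of 22 counted (median 0.09). Hoxa9 and Hoxa7, neighbours in the Hoxa cluster, were lower, Hoxa7 at 9.97 and 2.12 CPM, and so was Hlf at 13.6 and 5.91 CPM. Meis1, which encodes a DNA-binding partner of HOXA9, stood at 25.8 CPM in control against 76.5 in KO (log2 ratio 1.57), and Mycn at 8.32 and 48.8 CPM.

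Stem cell surface and signature genes were higher for 13 and lower for 4 of 28 counted (median 0.84). Of the 13, 7 were counted through the KO library. Several of the higher ones are platelet genes as well (Mmrn1, Itgb3). Esam, an adhesion molecule gene of stem cells and endothelium, stood at 0.601 and 20.01 CPM, Cd34 at 312 and 425 CPM and Gpr56 at 607 and 1024 CPM, the latter pair within 2-fold. Lower were Cd27 (59.5 and 6.61 CPM), the keratin gene Krt18 (13.3 and 1.85 CPM) and Flt3, the cytokine receptor of lymphoid-primed progenitors (30.5 and 9.43 CPM). Lymphoid priming genes were lower for 7 and higher for 1 of 11 counted (median -1.15), with Ighm, the mu heavy chain constant region, at 107 and 10.8 CPM, and Tcf3, which encodes E2A, at 285 and 125 CPM. The one on the higher side was the B cell adaptor gene Blnk, at 1.65 and 11.4 CPM. Among cytokine receptors, 9 of 25 counted were higher and 3 lower (median 0.22), and the gp130 chain Il6st stood at 60.8 and 24.6 CPM.

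Ribosome biogenesis genes were lower throughout the list. All 40 members were counted, 26 at least 2-fold lower, 0 higher and each with a negative ratio, between -1.55 and -0.31 (median -1.13). Nucleolin (Ncl) had 49996 counts in the control library and 10913 in the KO library, or 2505 and 962 CPM (log2 ratio -1.38), and nucleophosmin (Npm1) stood at 2363 and 836 CPM (-1.50). The nucleolar scaffold gene Nolc1 stood at 349.99 and 119.8 CPM, the RNA pseudouridine synthase gene Dkc1 at 276 and 97.2 CPM, and the helicase gene Ddx21 at 565 and 230.00 CPM. The summed level of the list was 12568 CPM in control against 5526 in KO. Ribosomal proteins, a family picked by symbol after values were seen, differed less, with 0 of 83 past 2-fold and a median of -0.24, and mitochondrial ribosomal proteins had a median of -0.35 with 1 of 71 lower.

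Myc, the transcription factor of growth genes, stood at 501 CPM in control against 186 in KO (log2 ratio -1.43), and Mycn, its relative, was higher, as given above. The other MYC network genes stayed within 2-fold, among them its partner Max at 157 and 132 CPM and the antagonist Mxd4 at 53.7 and 88.1 CPM. The general translation factor genes Eef1a1 and Eef2, among the most abundant transcripts, stood at 13889.7 and 8057 CPM and 5500.4 and 2867 CPM.

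Most mitosis and DNA replication genes had negative ratios within 2-fold. Of 40 mitosis genes, each counted, 8 were at least 2-fold lower and 0 higher, and 39 were negative (median -0.68). The kinase gene Plk1 stood at 144 CPM in control against 39.5 in KO (log2 ratio -1.87), the proliferation marker gene Mki67 at 287 and 102 CPM and topoisomerase Top2a at 617 and 301 CPM. DNA replication genes gave 6 lower and 0 higher of 39 counted (median -0.61), led by the origin licensing genes Orc1 (21.9 and 6.79 CPM) and Cdc6 (132 and 42.0 CPM), with the helicase gene Mcm6 at 780.2 and 497 CPM, within 2-fold. In the G1 list 3 were higher and 2 lower of 19 counted (median -0.25). Ccne1, cyclin E1, stood at 90.1 CPM in control against 23.1 in KO (log2 ratio -1.96), while cyclin D3 (Ccnd3) stood at 130.03 and 337 CPM and the p21 inhibitor gene Cdkn1a at 8.47 and 60.4 CPM (2.81).

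Genes of the p53, immediate early and interferon lists had positive medians. The p53 targets gave 8 higher and 0 lower of 23 counted (median 0.61), 4 of the 23 through the KO library. Cdkn1a, given above, was among the 8 higher. The death receptor gene Fas stood at 0.902 and 9.79 CPM and Plk2 at 1.30 and 13.1 CPM, both counted through the KO library. The 4 most abundant members of the list lay within 2-fold (log2 ratios from -0.39 to 0.20). The p53 antagonist gene Mdm2 stood at 44.7 and 68.1 CPM and was named after its values were seen. Immediate early genes gave 12 higher and 1 lower, Myc, of 19 counted (median 1.399), and 4 of the 12 were counted through the KO library. The higher ones included Jun at 7.42 and 42.9 CPM, the phosphatase gene Dusp1 at 5.66 and 40.1 CPM, and Socs3 at 0.701 and 18.7 CPM. Of the 4 most abundant members, Myc was lower and the others lay within 2-fold (log2 ratios from 0.47 to 0.79). The summed level of the list was 768 CPM in control against 823 in KO. Interferon response genes gave 9 higher and 1 lower of 25 counted (median 0.66), with 4 of the 25 counted through the KO library. Usp18, an interferon-induced protease gene, stood at 3.81 and 24.2 CPM and the RNA sensor gene Ddx58 at 16.6 and 76.3 CPM.

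Most genes of the metabolic, antioxidant and protein stress lists lay within 2-fold. Of 38 nuclear oxidative phosphorylation genes 0 passed 2-fold (median -0.11). Glycolysis genes gave 2 higher, Aldoc (2.76 and 27.8 CPM) and the glucose transporter gene Slc2a1 (15.9 and 49.4 CPM), and 2 lower, Pfkm (111 and 42.9 CPM) and Hk3 (228 and 101 CPM), of 20 counted (median 0.12). Mitochondrially encoded transcripts had a median of 0.70, none of the 12 (0 higher, 0 lower) passing 2-fold, beside the larger share of mitochondrial entries in the KO library. Antioxidant genes gave 5 higher and 1 lower of 25 counted (median -0.26), the lower being Nqo1 (27.4 and 9.96 CPM). Genes of the unfolded protein and integrated stress response gave 4 higher and 1 lower of 26 counted (median -0.14). The 4 higher had log2 ratios from 1.01 to 3.37, and 2 of them were counted through the KO library. The lower was asparagine synthetase (Asns), at 200.4 CPM in control against 58.6 in KO (log2 ratio -1.77).

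Lists of markers of other cells that a progenitor sort could carry along were read the same way. In the B cell list 2 of 18 entries in the files reached the minimum (Cd79b at 19.5 and 2.56 CPM, and Xbp1, also a gene of the unfolded protein response, at 134 and 128 CPM), and Ms4a1, which encodes CD20, was at 0 counts in both libraries. The summed level was 160 CPM in control against 153 in KO. In the T and NK cell list 6 of 26 were counted, each at least 2-fold higher, 4 of them through the KO library, with the summed level at 220 CPM in control against 708 in KO. Most of both sums came from Nkg7, a cytotoxic granule gene that is also on the primary granule list, at 197 and 517 CPM. Granzyme gene Gzmc had 0 counts in the control library and 188 in the KO library, at least 110.3-fold higher against the same floor (log2 interval from 6.47), Gzmb stood at 9.22 and 105 CPM and Klrb1c, an NK receptor gene, at 0.150 and 17.8 CPM. The T cell receptor genes Cd3e, Cd3d and Cd3g had 2 counts or fewer in each library. Endothelial, stromal and matrix genes gave 12 higher of 12 counted, out of 20 in the files and 6 of them through the KO library, with the summed level at 158 CPM in control against 566 in KO. Pecam1, an adhesion gene that myeloid cells also express, was the most abundant of them at 78.7 and 161 CPM. Kdr, a VEGF receptor gene, stood at 1.05 and 26.8 CPM, Sparc, a matrix protein gene, at 5.91 and 69.6 CPM, and Acta2, smooth muscle actin, at 3.36 and 44.5 CPM. The vascular cadherin gene Cdh5 had 4 and 25 counts, and Lepr and Pdgfra, of marrow stroma, were at 0 counts in KO. The part of such cells in the higher values of the platelet, neutrophil and macrophage lists was not tested. Ly6a, Xist, Ms4a1, Cdh5, Lepr, Pdgfra and the Cd3 genes were named after their values were seen.

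LSK cells of the same design, again 1 control and 1 KO library, gave fewer genes past 2-fold, 514 higher (4.98%) and 555 lower (5.38%) of 10311. The LSK and MyePro comparisons share no library. Over the 9979 genes counted in both, the log2 ratios had a Pearson correlation of 0.745 and a Spearman correlation of 0.726 (across genes, which are not independent). Genes higher in both numbered 397, which is 37.5% of the 1060 higher in MyePro and 86.5% of the 459 higher in LSK. Genes lower in both numbered 303, 40.3% of the 751 lower in MyePro and 62.1% of the 488 lower in LSK. Opposite sides were taken by 20 entries, each higher in KO MyePro and lower in KO LSK. Not all of them are ordinary genes: Gm26924 and Gm26917, treated here as ribosomal RNA, and microRNA entries are among them. Gm26924 had log2 ratios of 2.30 in MyePro and -1.80 in LSK. Lars2, Gm15662, Gm23935 and mmu-mir-6236, picked after values were seen, had 2.15 to 2.34 and -1.87 to -1.73. They were not treated as ribosomal RNA, so the ribosomal shares and the setting without ribosomal entries do not cover them. The difference between the populations could not be tested with 1 library per group.

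The same lists were set side by side in both populations, without a test of their difference. Erythroid genes had medians of -1.98 in MyePro and -1.69 in LSK, with 25 and 19 of 34 counted members at least 2-fold lower. Klf1 stood at 59.0 and 4.54 CPM in LSK, and Hoxa9 at 41.4 and 3.63 CPM. Late neutrophil genes had medians of 4.06 and 2.95. Megakaryocyte genes had a median of 2.66 in MyePro, with 29 of 38 higher, and 0.32 in LSK, with 7 of 36 higher and 3 lower. For Pf4 the LSK levels were 142 and 172 CPM, with control MyePro below and KO MyePro above both LSK libraries. Ribosome biogenesis genes had a median of -1.13 in MyePro, with 26 of 40 lower, and -0.53 in LSK, with 0 of 40. In LSK Ncl stood at 1764 and 1035 CPM and Myc at 409 and 279.5 CPM, with log2 ratios nearer to 0 (-0.77 and -0.55) than in MyePro (-1.38 and -1.43).

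**Figure D4:**
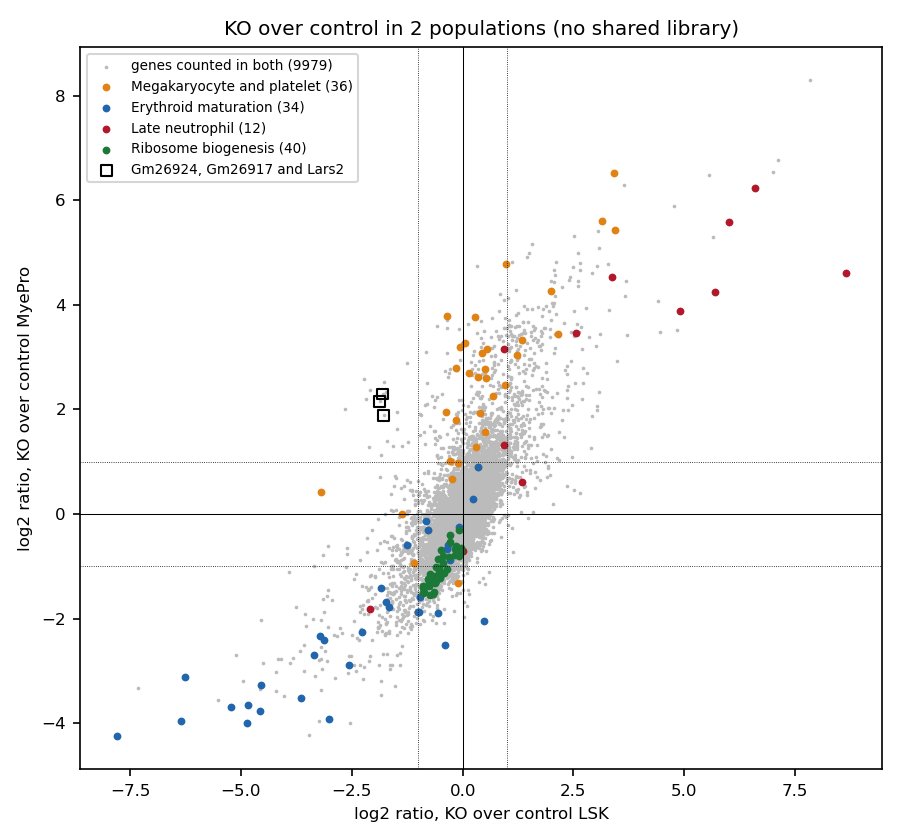
Log2 ratio KO over control in LSK (x axis) against MyePro (y axis) for the 9979 genes counted in both, with members of 4 lists coloured and dotted lines at 2-fold. Megakaryocyte genes (orange) lie high on the y axis and mostly within 2-fold on the x axis, erythroid genes (blue) lie low on both, and the squares mark 3 entries on opposite sides.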

How the data were processed

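RNA-seq of sorted cells from mixed bone marrow chimeras was read as raw read counts per gene symbol, deposited by the authors as 1 file per library. The submitters' processing notes name TopHat2, HTSeq 0.6.0 and the build mm10, with no role for each. Neither the strand setting nor the annotation version was found in the labels or files, which leaves values uncertain for genes that overlap, antisense pairs and close copies (globins, granzymes, Csf2rb and Csf2rb2). Per the labels, RNA was poly(A)-selected and these libraries were not amplified beforehand.

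Summary rows and an entry named DPY30-SPKIG were left out. TMM factors (edgeR 4.0.16) came from the 4 MyePro and LSK libraries over genes whose mean reached 1 CPM. Log2 ratios of normalized CPM used a prior count of 2, and a gene was counted where its mean over both libraries of a comparison reached 5 CPM. A level quoted as CPM carries no prior count, and a difference of 2-fold is a size and not a test. Genes with 0 counts in control lie above their list's median at their bound as well as at their ratio, so the list medians are the same either way. Members and gene lists were chosen with earlier results of these data known. Genes were named by this rule: Dpy30 and its complexes, the 15 highest and 15 lowest ratios with a mean of at least 10 CPM, the 15 most abundant genes per library, and in each list the 4 most abundant members, up to 4 past 2-fold in each direction, and members with 0 counts in a library. The 15 highest and 15 lowest leave out Gm, Rik, clone, predicted, pseudogene, Rpl and Rps symbols and ribosomal RNA entries. Coordinates and promoters are from RefSeq (GRCm38.p6), which matched 9595 of 10245 counted genes by symbol. A comparison of promoter composition was void, because under 80% of the genes past 2-fold had a promoter in the table. The ratio step was tested on simulated data. Some genes that the rule would name are not reported here.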

Additional observations from a re-analysis of the deposited data

Results flagged for a closer look

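The entry DPY30-SPKIG, kept out of the comparison, held 73.7 CPM in control MyePro and 1028 in KO MyePro, against 337 in control LSK and 367 in KO LSK. What this entry measures is not given in the sources used here.

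Entries on opposite sides in the 2 populations included Gm26924, treated here as ribosomal RNA, with a log2 ratio of 2.30 in MyePro and -1.80 in LSK. The entry Lars2, named for the mitochondrial leucyl-tRNA synthetase gene, had 2.15 and -1.87. In control MyePro, KO MyePro, control LSK and KO LSK it stood at 2040, 9074, 11211 and 3058 CPM. Gm26924 stood at 10504, 51650, 54604 and 15654 CPM, which is the same order of libraries. Whether the Lars2 reads come from the synthetase transcript was not tested. The share of entries treated as ribosomal RNA was 1.02% in control MyePro, 5.14% in KO MyePro, 5.44% in control LSK and 1.71% in KO LSK, and its part in these ratios was not tested. The difference between populations was not tested for either, since each group is 1 library.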

How the results depend on the processing

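The count of genes at least 2-fold higher was 2227 with a minimum mean of 1 CPM and 4366 with no minimum, and the count lower was 1558 with no minimum, against 1162 and 810. The B cell median, over 2 counted genes in the main setting, turned from -1.46 to 1.60 at a minimum of 1 CPM, to 1.54 with none, and to -0.05 without ribosomal, mitochondrial, globin and sex-linked entries. The lymphoid priming median went from -1.15 to -0.76 at a minimum of 1 CPM and -0.75 with none. With no minimum the late neutrophil median was 3.16 against 4.06 and the T and NK cell median 1.48 against 2.86, and with TMM over the 2 MyePro libraries the latter was 3.49. At a minimum of 10 CPM the globin median was 3.88 against 3.14 and the endothelial and stromal median 3.44 against 2.84. Under the other settings (other scalings, prior counts of 0.5 and 8, a minimum of 10 CPM, thinning to equal depth, removal of ribosomal, mitochondrial, globin and sex-linked entries) the counts ranged from 799 to 1299 higher and 650 to 884 lower. The extremes of 1299 and 650 came from TMM factors over genes of at least 5 CPM, and 884 from factors over all entries, both chosen after seeing the data. Of 2024 alternative values for the 169 named genes past 2-fold, 0 changed direction and 7, of 5 genes near 2-fold (Top2a, Ppp1r15a, Ifi27, Pecam1 and Kdm2b), came under 2-fold. Counts of list members moved with the scaling as well. Over the other scalings mitosis genes at least 2-fold lower numbered 5 to 8, and ribosome biogenesis genes 22 to 26. Cytokine receptors at least 2-fold higher numbered 6 to 10 and megakaryocyte genes 28 to 30, while erythroid genes lower stayed at 25. No paired analysis was possible because each genotype has 1 library, and for the same reason no replicate could be left out. Depth limits genes of few counts: 3 counts are 0.15 CPM in control MyePro and 0.26 CPM in KO MyePro.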
